A study of Mus musculus with 6 samples.

Results

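Expression of 10 genes for chemokines and inflammatory cytokines was compared between 6 and 16 months of age in mouse cortex: Ccl2, Ccl3, Ccl4, Ccl9, Cxcl10, Il1b, Tnf, Il33, Il18 and Cx3cl1. They were chosen by name and found by matching the Ensembl identifiers of the count tables to gene symbols, which gave all 10 among 38355 genes listed. Poly(A) RNA came from whole cortical tissue of C57BL/6 mice with no further genotype or treatment given, as 3 samples at 6 months and 3 at 16 months. Since each sample is bulk tissue, fewer cells of a type and less RNA per cell cannot be told apart. The study describes the samples of each age as 3 separate brains, and the labels number them without naming animals.

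Chemokines are small secreted proteins that bind G protein-coupled receptors and direct the movement of cells, above all leukocytes. Cytokines such as interleukin-1 beta and tumour necrosis factor switch on NF-kB signalling in the cells they reach, and in brain tissue microglia are a known source of both. A few members of these families are made steadily by resting brain cells: fractalkine (Cx3cl1) is carried on neurons and read by microglia, and interleukin-33 is stored in nuclei of glia and released on damage.

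The libraries held 29797253 to 46519280 counts on genes, so that 3 counts, taken here as the floor below which a level is not read, correspond to 0.0645 to 0.101 CPM (counts scaled to a common library total). CPM values below were scaled by the trimmed mean of M-values (TMM). Slc17a7, the vesicular glutamate transporter of cortical excitatory neurons, stood at 976 ± 43.4 CPM at 6 months and 1090.3 ± 148 CPM at 16 months (mean ± SD, n = 3 each). This gene alone does not tell cortex from other brain regions that express it. At 16 months, replicates 1 and 2 departed from their age mean with GC content, replicate 1 towards GC-rich and replicate 2 towards GC-poor genes (r across genes of 0.588 and -0.582), while the other 4 samples lay between -0.13 and 0.16. Results for the members are therefore also given with offsets for GC content and transcript length.

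None of the 10 members passed an adjusted p of 0.05 in the quasi-likelihood test of edgeR, with p-values adjusted after Benjamini and Hochberg over 17120 genes, against 1.67% of all genes tested. Of the 10, 6 had enough counts to be tested, and 1 of these, Cx3cl1, had an unadjusted p under 0.05. DESeq2 called the same gene alone among them, with 3.03% of its tested genes called. Mean CPM was lower at 16 months for 9 of the 10 members, and Cx3cl1 was the exception. Over all 17120 genes tested, 8501 had a negative log2 fold change. The 9 members include Tnf, at or under the floor in 5 of 6 samples. They also include Il1b, at 0.33 CPM at 6 months and 0.323 CPM at 16 months. With GC and length offsets its mean was higher at 16 months (0.325 against 0.328 CPM). The ages did not overlap for 3 members. Cx3cl1 was higher in every 16-month sample, as were 12.2% of all tested genes, whereas Ccl4 and Ccl9 were lower in every 16-month sample, as were 11.5%. Ccl4 was under the count filter and is not among the genes of that share.

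**Figure D1:**
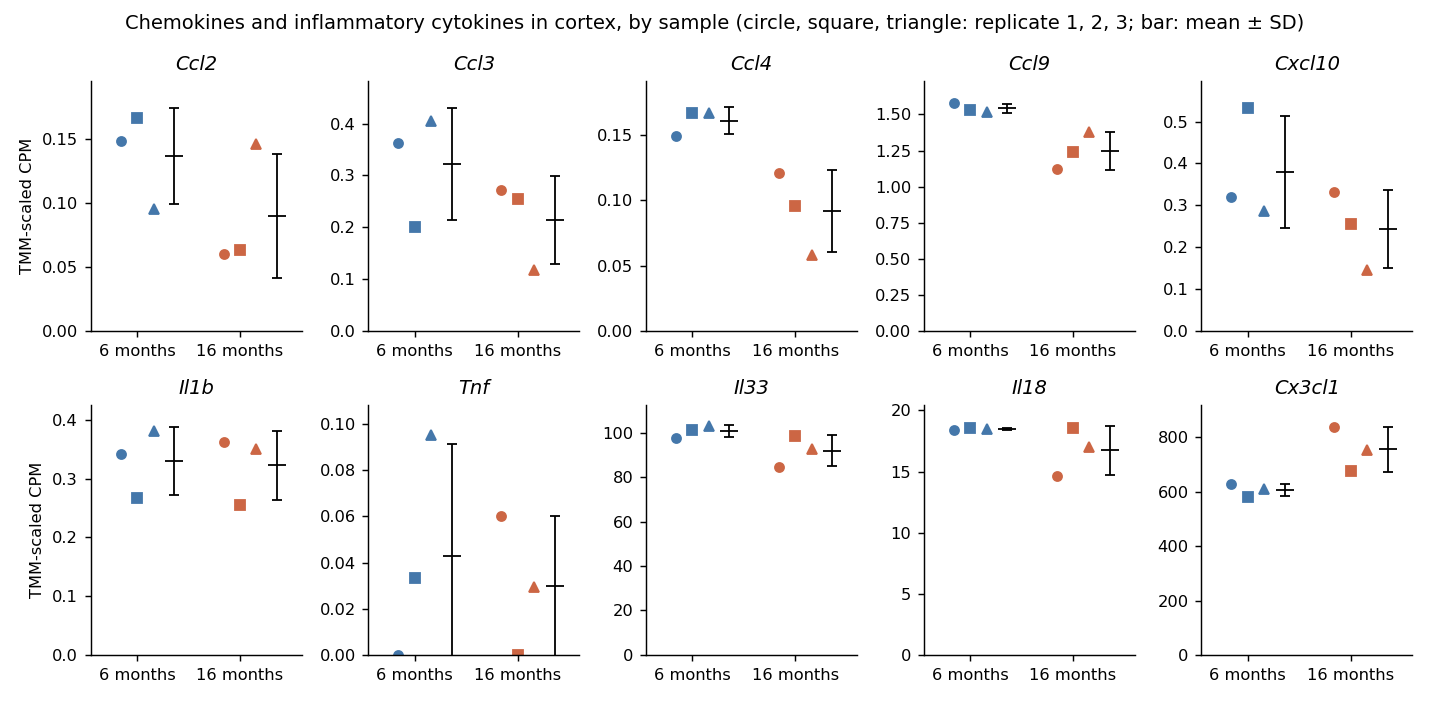
TMM-scaled CPM of the 10 members in the 3 samples of 6 months (blue) and the 3 of 16 months (orange), with the mean ± SD as a black bar and each axis starting at 0 (the bars of Tnf reach below 0 and are clipped). Cx3cl1 lies higher in all 3 samples of 16 months, Ccl4 and Ccl9 lie lower, and the other 7 genes overlap between ages.

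Levels per length spanned a wide range, with Cx3cl1 at the top and Tnf at the bottom. As RPKM, which is CPM divided by the kilobases of exon, Cx3cl1 stood at 154 ± 5.98 at 6 months and 192 ± 20.9 at 16 months (n = 3 each). Il33 followed at 34.9 ± 0.997 and 31.9 ± 2.44 RPKM, and Il18 at 18 ± 0.109 and 16.2 ± 1.93 RPKM. The 3 highest genes did not overlap with one another in any sample. Then came a gap: the mean of Il18 was 37.3 times that of Ccl9, the next gene in the order. Ccl9, Ccl3, Ccl4, Il1b, Cxcl10, Ccl2 and Tnf followed, with every neighbouring pair in this order overlapping over the 6 samples. These 7 genes together collected 347 counts at 6 months and 221 at 16 months, with 0 to 74 counts per gene and sample.

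**Figure D2:**
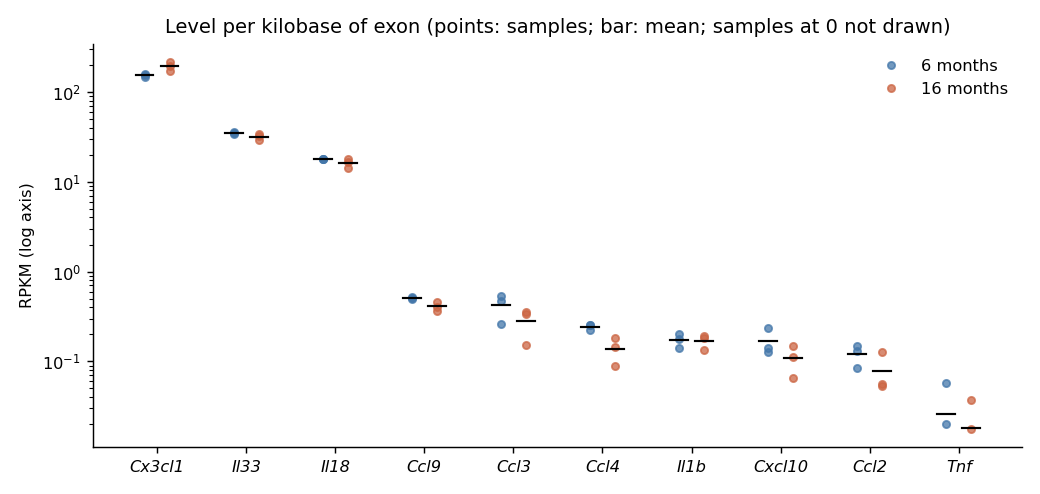
RPKM of the members on a log axis, ordered by mean level, with 1 point per sample and a bar at the mean of each age. Cx3cl1, Il33 and Il18 lie above 14 RPKM in every sample and the other 7 genes below 0.53 RPKM.

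Cx3cl1 encodes fractalkine, a chemokine with a membrane stalk that neurons carry on their surface and that proteases shed into the extracellular space. The gene lies at 94772009 to 94782427 on chromosome 8, plus strand, in GRCm38 with the GENCODE annotation. The sequence just upstream is shown because Cx3cl1 was the member with an unadjusted p under 0.05. It is the part of RefSeq's promoter window that precedes the start of the gene in both annotations, chr8:94771930-94772008 in GRCm38.p6, plus strand, all in lower case because no searched motif fell in it.

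Cx3cl1: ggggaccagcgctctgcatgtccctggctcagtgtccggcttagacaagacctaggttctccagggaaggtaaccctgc

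The whole 250-base window before RefSeq's start of Cx3cl1 had a GC content of 64.8% and 14 CpG dinucleotides, while the median window of all genes had 6 and 70.6% of windows had fewer than Cx3cl1. Windows were found for 8 of the 10 members, and the other 7 had 1 to 10 CpG.

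Counts of Cx3cl1 were 29500, 17474 and 25570 at 6 months and 27811, 21157 and 25796 at 16 months. The younger samples thus had 629, 582 and 609 CPM. The older samples had 839, 675 and 755 CPM. The lowest sample of 16 months, replicate 2, thus lay above the highest of 6 months, replicate 1. The mean was 607 ± 23.5 CPM at 6 months and 756 ± 82 CPM at 16 months, 24.6% higher, with a log2 fold change of 0.32 (SE 0.076, 95% interval 0.15 to 0.49). This did not pass the adjusted threshold (edgeR quasi-likelihood adjusted p = 0.0749), and an exact two-sided permutation test gave p = 0.1, the smallest that 3 against 3 samples allow.

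The spread of Cx3cl1 among the 16-month samples followed their GC deviation: replicate 1, the sample in which GC-rich genes ran high, had the highest value and replicate 2 the lowest. The transcript of Cx3cl1 has a GC content of 57.1%. With offsets for GC content and length, its levels were 624, 599 and 618 CPM at 6 months. With the same offsets they were 750.3, 729 and 749.7 CPM at 16 months. The SD at 16 months was 12 CPM, and the log2 fold change was 0.28 (95% interval 0.22 to 0.34, edgeR adjusted p = 2.78e-05). Under these offsets 14.2% of all genes were called, so the call stood among many others.

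Cx3cl1 was also called without a filter on low counts (edgeR adjusted p = 0.00559, 2.35% of genes called), by DESeq2 (adjusted p = 0.00781), without 16-month replicate 1 (log2 fold change 0.24, edgeR adjusted p = 0.0172, 5.73% of genes called) and without 16-month replicate 2 (log2 fold change 0.39, edgeR adjusted p = 0.00214, 12.7% of genes called). It was not called when any sample of 6 months or replicate 3 of 16 months was left out, where edgeR's adjusted p ranged from 0.212 to 0.313. Its direction was the same in all 15 alternatives.

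**Figure D3:**
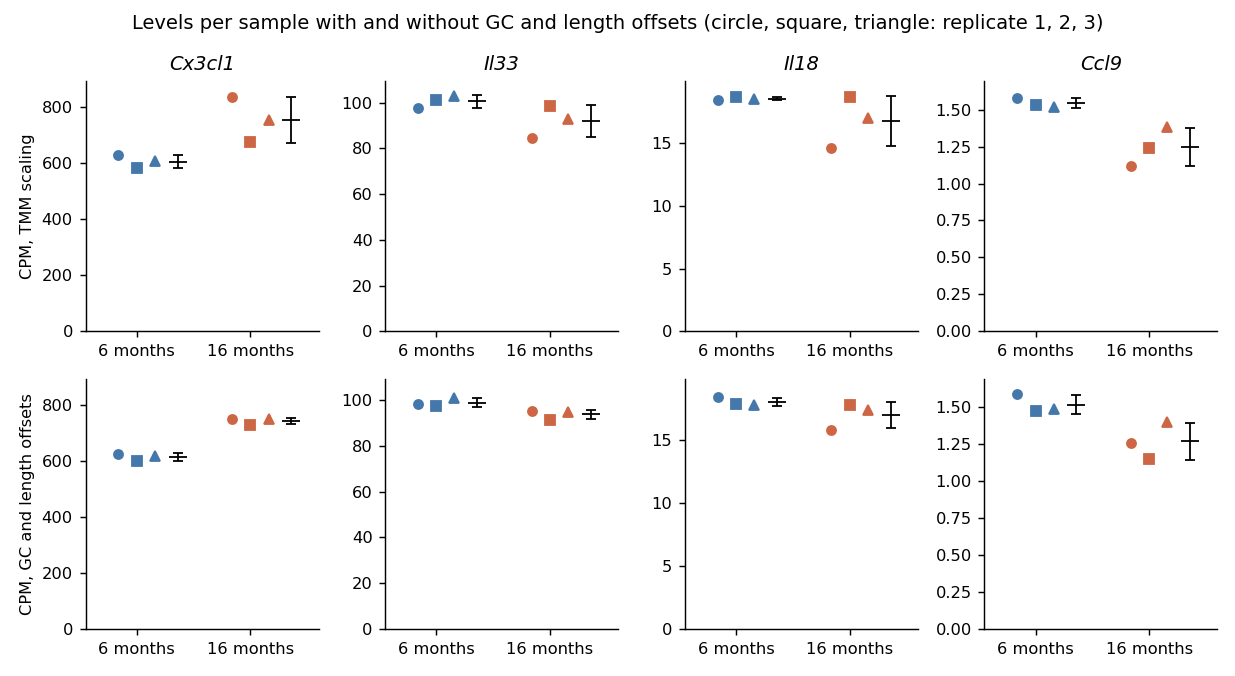
CPM per sample of Cx3cl1, Il33, Il18 and Ccl9 with TMM scaling (top row) and with added offsets for GC content and length (bottom row), 6 months in blue, 16 months in orange, bars showing mean ± SD. For Cx3cl1 the 3 samples of 16 months draw together with the offsets, from 675 to 839 CPM down to 729 to 750.3 CPM, and stay above all 3 samples of 6 months.

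The receptor for fractalkine, Cx3cr1, which in brain marks microglia, had 2655, 1564 and 2335 counts at 6 months and 1978, 1680 and 1894 at 16 months. Its mean was 54.8 ± 2.37 CPM at 6 months and 56.2 ± 3.11 CPM at 16 months, and the ages overlapped (log2 fold change 0.04, SE 0.061, edgeR adjusted p = 0.803). Per length, Cx3cl1 stood 12.7 times above Cx3cr1 at 6 months and 15.4 times above it at 16 months. The sheddases that cut fractalkine from the membrane did not pass the test either: Adam10 had a log2 fold change of 0.04 (edgeR adjusted p = 0.801) and Adam17, which also releases tumour necrosis factor, one of -0.06 (edgeR adjusted p = 0.654).

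Markers of excitatory neurons, the cells known to carry fractalkine, did not pass the test in any of 12 cases, and 10 of the 12 had a positive log2 fold change, with a median of 0.13 against 0.00 over all genes tested. The list also holds Snap25, Syt1 and Rbfox3, which neurons in general express. With GC and length offsets, 4 of the 12 were called higher and 0 lower, with 14.2% of all genes called. The summed TMM-scaled level of the 12 ranged from 11129 to 11152 CPM at 6 months and from 11592 to 11786 CPM at 16 months. Slc17a7 itself had a log2 fold change of 0.16 (edgeR adjusted p = 0.38). Their part in the difference of Cx3cl1 was not tested. Among the genes whose log2 CPM followed Cx3cl1 most closely over the 6 samples were Tatdn2 and Abr, each at Pearson's r = 0.998, whose transcripts have a GC content of 58% and 54.1%.

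Il33 encodes interleukin-33, an alarmin of the interleukin-1 family that sits in the nucleus and signals through ST2, the product of Il1rl1. The gene lies at 29925114 to 29960718 on chromosome 19, plus strand. It had 4578, 3043 and 4334 counts at 6 months and 2802, 3090 and 3171 at 16 months. These corresponded to 97.6, 101 and 103 CPM at 6 months, against 84.5, 98.5 and 92.8 CPM at 16 months. Replicate 2 of 16 months reached past the lowest sample of 6 months, so the ages overlapped by a narrow margin. The log2 fold change was -0.13 (SE 0.064, 95% interval -0.28 to 0.01) and did not pass the test (edgeR adjusted p = 0.322).

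The order of the 16-month samples in Il33 was the reverse of that in Cx3cl1, and the transcript of Il33 has a GC content of 42.5%. With GC and length offsets Il33 had 98.1, 97.4 and 101 CPM at 6 months and 95.3, 91.4 and 94.6 CPM at 16 months. The ages then did not overlap, and the log2 fold change was -0.08 (95% interval -0.15 to -0.01, edgeR adjusted p = 0.135). It passed the threshold in 1 of 15 alternatives, without 16-month replicate 2 (log2 fold change -0.18, edgeR adjusted p = 0.0485). The genes most like Il33 over the 6 samples were Ercc6l2, Bnip3 and Sltm, each at r = 0.997. Il1rl1 was barely detected, with 16, 11 and 5 counts at 6 months and 10, 4 and 4 at 16 months (log2 fold change -0.56, SE 0.518, edgeR adjusted p = 0.629).

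Interleukin-33 in brain is made by astrocytes and oligodendrocytes, so their markers are given beside it. Among astrocyte markers 1 of 12 passed the test: Gfap, the intermediate filament of astrocytes, fell by 0.47 on the log2 scale (edgeR adjusted p = 0.00332), from 259 ± 5.24 to 187 ± 9.88 CPM, while the water channel gene Aqp4 had a log2 fold change of -0.03 (edgeR adjusted p = 0.86). The 12 astrocyte markers had a median log2 fold change of 0.12 and a summed level of 6984 to 7346 CPM at 6 months and 7492 to 8169 CPM at 16 months. With GC and length offsets 5 of them were called higher and 3 lower, and DESeq2 called 6 (14.2% and 3.03% of all genes called). Among 12 oligodendrocyte markers, the myelin membrane genes Mal and Cldn11 rose by log2 fold changes of 0.35 and 0.28 (edgeR adjusted p = 0.0275 and 0.0251). Aspa, which splits N-acetylaspartate, fell by 0.57 on the log2 scale (edgeR adjusted p = 0.0313). Mbp and Mog, which encode myelin proteins, had log2 fold changes of -0.05 and 0.14 (edgeR adjusted p = 0.669 and 0.222). With the offsets, 5 of the 12 oligodendrocyte markers were called higher and 3 lower. The part of these cells in the level of Il33 was not tested.

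Il18 encodes interleukin-18, made as an inactive precursor that caspase-1 cuts. It lies at 50554827 to 50581840 on chromosome 9, plus strand, and overlaps Bco2 and Tex12 on the other strand. Counts were 863, 559 and 778 at 6 months and 484, 582 and 580 at 16 months. The samples of 6 months were nearly level, at 18.4, 18.6 and 18.5 CPM. Those of 16 months spread from 14.6 CPM in replicate 1 over 17 CPM in replicate 3 to 18.6 CPM in replicate 2, which overlapped with 6 months. The log2 fold change was -0.15 (SE 0.085, 95% interval -0.34 to 0.04, edgeR adjusted p = 0.405) and -0.08 with GC and length offsets (edgeR adjusted p = 0.34), where the ages lay apart by a narrow margin. It was -0.06 without 16-month replicate 1 and -0.23 without 16-month replicate 2 (edgeR adjusted p = 0.649 and 0.0611). Within the ages, deviations of Il18 and Il33 from their means went together over the 6 samples (r = 0.949) and ran against those of Cx3cl1 (r = -0.944 and -0.942). These values are a description of 6 samples, 2 of which carry the GC deviation above.

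The genes most like Il18 over the 6 samples were 1700020I14Rik and Smim10l1, each at r = 0.999, and Zfp292 at r = 0.998. Its receptor gene Il18r1 was at the floor, with 3 counts in each sample of 6 months and 2, 1 and 1 at 16 months. Il18bp, whose product binds interleukin-18 and keeps it from its receptor, had 297, 228 and 284 counts at 6 months and 210, 198 and 202 at 16 months (log2 fold change -0.15, SE 0.091, edgeR adjusted p = 0.444).

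Il1b, the gene of interleukin-1 beta, a main trigger of fever and of NF-kB signalling, was low at both ages. It lies at 129364570 to 129371139 on chromosome 2, minus strand, and overlaps the antisense gene Il1bos. It had 16, 8 and 16 counts at 6 months and 12, 8 and 12 at 16 months, which overlapped throughout. The log2 fold change was -0.05, and its 95% interval from -0.70 to 0.60 leaves room for sizeable changes either way (SE 0.292, edgeR adjusted p = 0.953). Its sign turned in 4 of 13 alternatives, among them the fits that left out 6-month replicate 3 (0.060) and 16-month replicate 2 (0.085).

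Il1r1, the signalling receptor for interleukin-1, rose. It had 285, 202 and 284 counts at 6 months and 276, 307 and 314 at 16 months, and all 3 samples of 16 months lay above those of 6 months in CPM. The mean went from 6.52 ± 0.388 to 9.1 ± 0.737 CPM (log2 fold change 0.48, SE 0.088, edgeR adjusted p = 0.0273). The decoy receptor Il1r2 had 10 to 16 counts at 6 months and 4 to 11 at 16 months (log2 fold change -0.30, edgeR adjusted p = 0.737). Il1rn, the receptor antagonist, had 6, 1 and 1 counts at 6 months and 3, 0 and 0 at 16 months.

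Casp1, the protease that matures interleukin-1 beta and interleukin-18, fell. It had 292, 221 and 275 counts at 6 months and 103, 119 and 118 at 16 months, from 6.71 ± 0.585 to 3.45 ± 0.344 CPM, with no overlap. The log2 fold change was -0.95 (SE 0.107, edgeR adjusted p = 0.0025). Its partners in the NLRP3 inflammasome did not pass the test: the sensor Nlrp3 had a log2 fold change of 0.11 (SE 0.184, edgeR adjusted p = 0.80) and the adaptor Pycard one of 0.02 (SE 0.126, edgeR adjusted p = 0.961).

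Tnf, the gene of tumour necrosis factor, lies at 35199381 to 35202007 on chromosome 17, minus strand. It had 0, 1 and 4 counts at 6 months and 2, 0 and 1 at 16 months, so that 5 of 6 samples were at or under the floor and no change could be read at this depth. Its receptors were expressed, with overlapping ages. Tnfrsf1a was at 8.06 ± 0.168 CPM at 6 months and 8.19 ± 0.409 CPM at 16 months (edgeR adjusted p = 0.906). Tnfrsf1b was at 4.81 ± 0.297 and 4.86 ± 0.437 CPM (edgeR adjusted p = 0.935).

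The CC chemokines Ccl2, Ccl3, Ccl4 and Ccl9 attract monocytes, macrophages and other leukocytes, and all 4 genes lie on chromosome 11. Ccl9 had the highest mean RPKM of them and was the 1 with enough counts for the test. It lies at 83572919 to 83578636, minus strand, and 4.46% of its transcript matches transcripts of Mapk12 and Sdhaf2 at 97% identity or more, so reads from that stretch may be assigned with some uncertainty. Its promoter is shown because its ages did not overlap. The 250 bases before its start are chr11:83578637-83578886 in GRCm38.p6, minus strand, from RefSeq, with capitals for motif matches on either strand.

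Ccl9: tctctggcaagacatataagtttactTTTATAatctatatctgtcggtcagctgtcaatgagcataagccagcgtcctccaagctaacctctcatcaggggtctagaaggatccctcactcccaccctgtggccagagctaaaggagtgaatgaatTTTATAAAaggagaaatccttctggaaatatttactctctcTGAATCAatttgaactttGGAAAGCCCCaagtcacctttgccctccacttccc

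In this window the NF-kB consensus matched once, 35 bases before the start and on the opposite strand (7.25% of 32851 windows of this length held a match). TGANTCA, which leaves the central base of the AP-1 motif open, matched 53 bases before the start as TGAATCA (6.75% of windows). TATAAA matched 3 times, 224, 94 and 92 bases before the start, the last 2 overlapping on opposite strands (12.4% of windows).

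Counts of Ccl9 were 74, 46 and 64 at 6 months and 37, 39 and 47 at 16 months. In CPM the samples of 6 months lay at 1.58, 1.53 and 1.52, and those of 16 months at 1.12, 1.24 and 1.38. Every sample of 16 months was thus below every sample of 6 months, with a wider spread at the later age. The log2 fold change was -0.31 (SE 0.147, 95% interval -0.64 to 0.02) and did not pass the test (edgeR adjusted p = 0.312, exact two-sided permutation p = 0.1). With GC and length offsets it was -0.26 (edgeR adjusted p = 0.306) and the ages still did not overlap.

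Ccl4, at 83662584 to 83664683 on the plus strand, had 7, 5 and 7 counts at 6 months and 4, 3 and 2 at 16 months. These gave 0.149, 0.167 and 0.167 CPM at 6 months and 0.121, 0.0956 and 0.0585 CPM at 16 months. The ages did not overlap, but replicates 2 and 3 of 16 months were at or under the floor of 3 counts. Pooled over each age, 19 counts at 6 months stood against 9 at 16 months, a ratio in CPM of 0.571 with an exact 95% counting interval from 0.227 to 1.32 (exact two-sided permutation p = 0.1 over the samples). Such intervals cover counting error only.

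Ccl3, at 83647844 to 83649355 on the minus strand, had 17, 6 and 17 counts at 6 months and 9, 8 and 4 at 16 months. The ages overlapped through replicate 2 of 6 months. Its pooled ratio was 0.632 (95% counting interval 0.354 to 1.1, exact permutation p = 0.3). Ccl2, at 82035571 to 82037453 on the plus strand and overlapping the antisense gene Gm17268, had 7, 5 and 4 counts at 6 months and 2, 2 and 5 at 16 months. The ages overlapped through replicate 3 of 16 months, and the pooled ratio was 0.678 (95% counting interval 0.264 to 1.63, exact permutation p = 0.2).

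Among the receptors of these chemokines, Ccr1 had 6 to 15 counts at 6 months and 6 to 13 at 16 months. Ccr2, the receptor for the product of Ccl2 and a marker of blood monocytes, had 8 to 17 counts at 6 months and 9 to 12 at 16 months. Both overlapped between ages and had too few counts for the test.

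Cxcl10 encodes a chemokine that interferons induce and that draws T cells through CXCR3. It lies at 92346638 to 92348889 on chromosome 5, minus strand, inside the span of Art3 on the other strand, and 5.96% of its transcript is shared with Art3. Its promoter is shown because it held 3 matches to the NF-kB consensus, the most among the 8 members with a window. The 250 bases are chr5:92348890-92349139 in GRCm38.p6, minus strand, from RefSeq, with capitals for motif matches.

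Cxcl10: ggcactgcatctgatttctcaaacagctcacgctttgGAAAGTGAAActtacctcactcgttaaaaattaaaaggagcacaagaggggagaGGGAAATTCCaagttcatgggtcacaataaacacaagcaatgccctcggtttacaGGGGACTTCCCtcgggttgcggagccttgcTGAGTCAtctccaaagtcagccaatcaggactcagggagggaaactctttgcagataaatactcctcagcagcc

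The NF-kB consensus matched 3 times in this window, 159, 104 and 103 bases before the start, the last 2 overlapping by all but a base. The core of the interferon-stimulated response element matched 213 bases before the start, as it did in 2.98% of all windows, and AP-1 matched 74 bases before it. Among the 8 members with a window, only Cxcl10 and Ccl9 had a match to the NF-kB consensus or to AP-1 within it. Ccl2 and Ccl4 had no window and were not searched. TATAAA was found at 31 bases before the start in Il1b and at 29 in Tnf, and Ccl3 had none of the motifs searched. Such matches describe the sequence and were not tied to binding or to the levels measured.

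Cxcl10 had 15, 16 and 12 counts at 6 months and 11, 8 and 5 at 16 months. Scaled, these were 0.32, 0.533 and 0.286 CPM at 6 months and 0.332, 0.255 and 0.146 CPM at 16 months. The ages overlapped, with replicate 1 of 16 months above 2 of the samples of 6 months. The log2 fold change of -0.57 had a 95% interval from -1.43 to 0.29 (SE 0.386, edgeR adjusted p = 0.487). At so few counts it moved with single samples, to -0.30 without 16-month replicate 3, -0.32 without 6-month replicate 2 and -0.86 without 16-month replicate 1. Its receptor gene Cxcr3 had 2, 0 and 1 counts at 6 months and 1, 0 and 2 at 16 months.

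**Figure D4:**
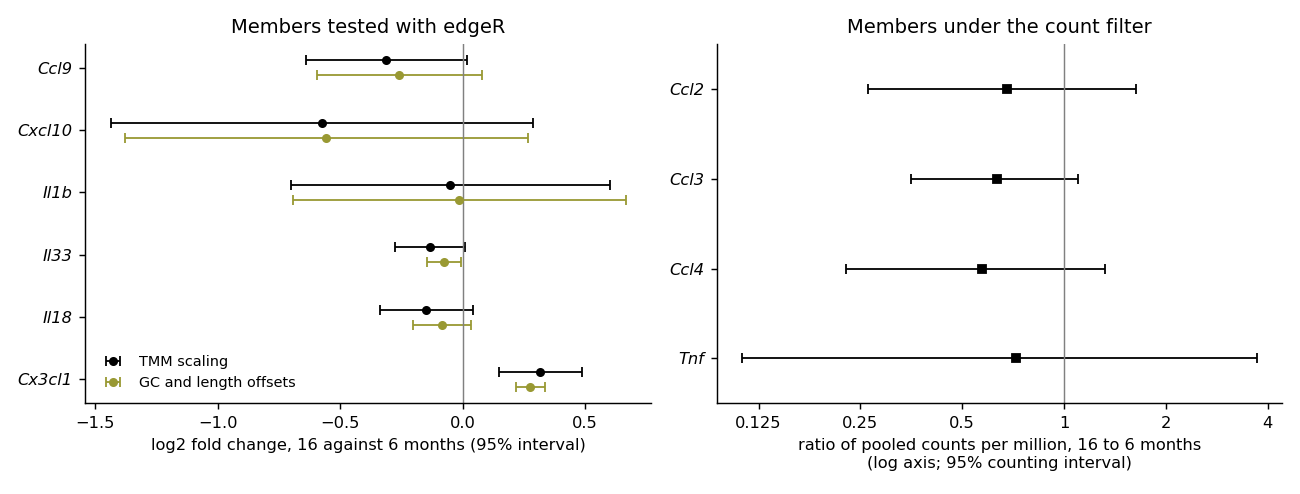
Left, log2 fold changes of 16 against 6 months with 95% intervals for the 6 members tested with edgeR, with TMM scaling (black) and with GC and length offsets (olive). Right, ratios of pooled CPM with 95% counting intervals, on a log axis, for the 4 members with too few counts to test. With TMM scaling the interval of Cx3cl1 (0.15 to 0.49) is the 1 that lies wholly on a single side of no difference, and all 4 ratios lie below 1 with intervals that include it.

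The other genes of these pathways were read from lists. Of 32 other chemokines, 11 were tested and 1 passed: Cxcl5, which attracts neutrophils, fell from 48, 34 and 41 counts at 6 months to 7, 16 and 12 at 16 months (log2 fold change -1.54, SE 0.27, edgeR adjusted p = 0.0239). A stretch of 5.37% of its transcript is shared with Mlh3. Cxcl5 passed the count filter through its samples of 6 months, which favours a call that reads lower. With at least 10 counts required in every sample it was not tested. The 11 had a median log2 fold change of -0.27, with 9 negative, against 0.00 over all genes tested. Of 23 chemokine receptors, 9 were tested and none passed (median 0.10). Of 42 other cytokines, 18 were tested and 1 passed: Spp1, the gene of osteopontin, fell by 0.56 on the log2 scale (SE 0.085, edgeR adjusted p = 0.0128), from 14 ± 0.785 to 9.49 ± 0.858 CPM, with 12% of its transcript shared with Gm42793. Listed at 0 in all 6 samples were Cxcl2, Cxcl3, Cxcl15, Ccr4, Ccr8, Il10, Il17a, Ifng and Ifnb1.

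Of 21 cytokine receptors and decoys, 19 were tested and Il1r1 was the 1 that passed (median 0.02). Of 19 genes of the inflammasome and of cytokine release, 18 were tested and 2 passed, both lower at 16 months: Casp1, and Ctss, a lysosomal protease of microglia, which fell by 0.28 on the log2 scale (SE 0.057, edgeR adjusted p = 0.0397), from 93.9 ± 0.999 to 77.1 ± 4.67 CPM. None of 36 genes of NF-kB and receptor signalling passed (median -0.01). Over all lists, 15 of 225 tested genes were called, 3 higher and 12 lower at 16 months. The lists were chosen with earlier results of these data known, so this count and its directions are a description and not a test. Over all genes tested, 286 of 17120 were called (1.67%), 134 higher and 152 lower. With GC and length offsets 66 genes of the lists were called, and the directions were closer to even, at 30 higher and 36 lower. Over all genes, 14.2% were called with these offsets, 1261 higher and 1164 lower. With at least 10 counts required in every sample, 11 genes of the lists were called, and Cxcl5, Itgax, Clec7a and Mmp12 were not tested. Left-out samples bear on the number of 15 as well. It was 3 or 4 when a 6-month sample or 16-month replicate 3 was left out, 42 without 16-month replicate 1 and 50 without 16-month replicate 2. In the 4 fits that gave 3 or 4, Cxcl5, Spp1, Il1r1 and Ctss, described here as called, lost the call. So did the marker genes Aif1, Tyrobp, Itgax, Clec7a, Mal, Cldn11 and Aspa, and Mmp12 in 3 of these fits, with edgeR adjusted p from 0.0548 to 0.238. Casp1, Gfap and Lyz2 were called in all 15 alternatives.

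**Figure D5:**
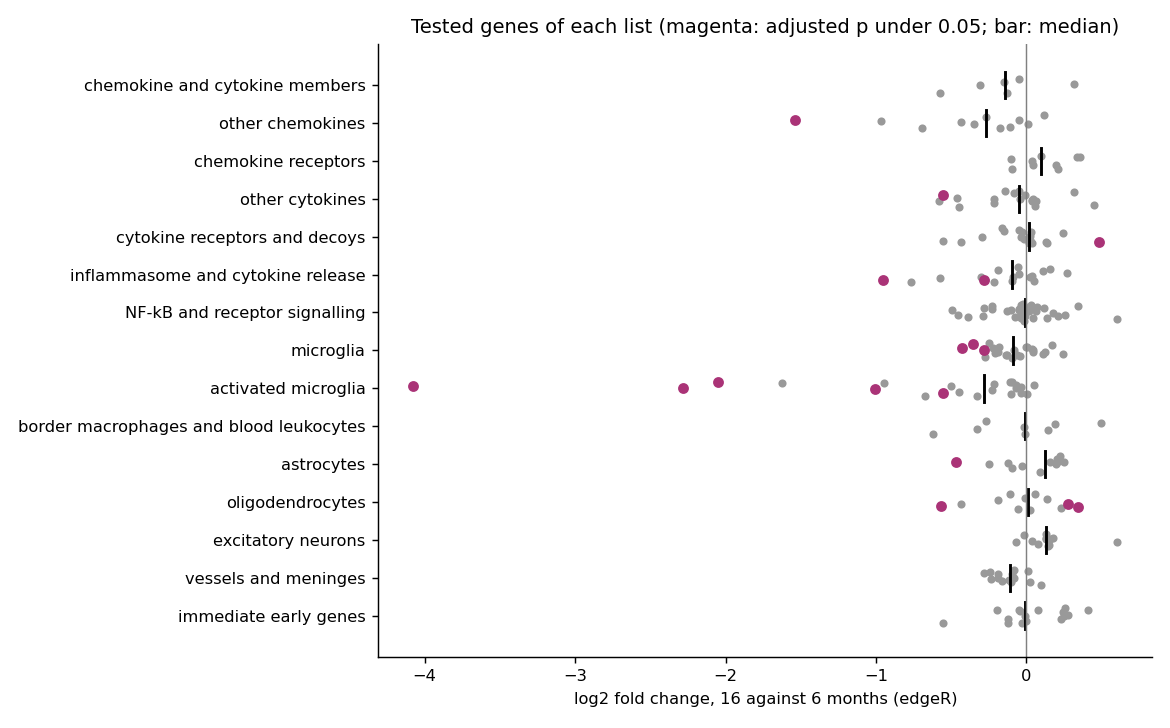
Log2 fold changes of 16 against 6 months for the tested genes of the members and of each list, 1 point per gene, with genes past an adjusted p of 0.05 in magenta and the median of each list as a black bar. Activated microglia and other chemokines have the lowest medians (-0.28 and -0.27), and 12 of the 15 called genes lie on the lower side, against 36 of 66 with GC and length offsets (Spp1 and Ctss are each drawn in 2 lists). Over all genes tested, 152 of 286 called genes were lower, and 1164 of 2425 with these offsets. The lists were chosen with earlier results of these data known.

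Markers of microglia, a known source of most of the members, are given beside them. Of 24 microglial markers 3 passed, all lower at 16 months: Aif1, which encodes the cytoskeletal protein IBA1, with a log2 fold change of -0.43 (edgeR adjusted p = 0.0418), the signalling adaptor Tyrobp with one of -0.36 (edgeR adjusted p = 0.029), and Ctss. Over all genes tested, 1.67% passed. The median of the list was -0.09, and 8 of the 24 had a positive log2 fold change. Its summed level ranged from 868 to 894 CPM at 6 months and from 853 to 868 CPM at 16 months. With GC and length offsets 2 of the 24 were called higher and 4 lower, with 14.2% of all genes called. The defining markers P2ry12 and Tmem119 had log2 fold changes of -0.21 and 0.04 (edgeR adjusted p = 0.374 and 0.785).

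Of 22 markers of activated microglia 5 passed, all lower at 16 months, with a list median of -0.28. Lyz2, the lysozyme gene of myeloid cells, had 605, 381 and 583 counts at 6 months and 190, 224 and 232 at 16 months (log2 fold change -1.01, edgeR adjusted p = 0.000824). The integrin gene Itgax had 33, 17 and 28 counts at 6 months and 5, 6 and 2 at 16 months (edgeR adjusted p = 0.0133), and Clec7a, which encodes the glucan receptor dectin-1, 29, 22 and 40 against 4, 11 and 3 (edgeR adjusted p = 0.0394). The elastase gene Mmp12 had 14, 13 and 20 counts at 6 months and 1, 0 and 1 at 16 months (edgeR adjusted p = 0.011), and Spp1 was the fifth. Itgax, Clec7a and Mmp12 passed the count filter through their samples of 6 months, so that a call could only read lower. With at least 10 counts required in every sample these genes were not tested, and 2 genes of the list were called. The summed level of the list, carried by Apoe and cathepsin genes, ranged from 2520.1 to 2599 CPM at 6 months and from 2396 to 2674 CPM at 16 months.

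Of 24 markers of border macrophages and blood leukocytes, 8 were tested and none passed, with a summed level of 19.8 to 20.9 CPM at 6 months and 20 to 20.8 CPM at 16 months. Ly6g, a marker of neutrophils, was at 0 in all samples, and Mrc1, which marks border macrophages, had a log2 fold change of -0.33 (edgeR adjusted p = 0.18). None of 14 markers of vessels and meninges passed (median -0.11, Cldn5 at -0.19 with an edgeR adjusted p of 0.237). With GC and length offsets 4 of them were called lower, with 14.2% of all genes called. None of 16 immediate early genes, which rise when tissue is handled, passed either (median -0.01). With GC and length offsets, however, 6 of the 16 were called higher and 2 lower, beside the same 14.2% of all genes. The summed TMM-scaled level of the list ranged from 1036 to 1058 CPM at 6 months and from 1069 to 1307 CPM at 16 months. These sums did not overlap, and 12.2% of single tested genes were higher at 16 months without overlap. The part of any of these cells in the levels of the chemokines and cytokines was not tested.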

How the data were processed

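Poly(A) RNA of whole mouse cortex was sequenced as paired reads from 3 samples at 6 months and 3 at 16 months. The growth notes speak of 3 months where titles and age labels say 6 months, and the latter were used. The authors trimmed reads with fastq-mcf, aligned them to mm10 with STAR and counted them per Ensembl gene with HTSeq. The submitters' processing notes instead name CASAVA 1.8.2, STAR 2.3.0e and featureCounts 1.5.0-p1. The strand setting and annotation release are not given in the sources used here. The values analysed were the deposited raw counts per gene, with no normalization. Reads in no gene (22 to 27.7%) and ambiguous reads (1.42 to 1.57%) were left out of library sizes and tests. Of 38355 listed identifiers, 36602 matched GENCODE release vM21 (GRCm38), which gave symbols, lengths and GC content.

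Counts were tested with edgeR 4.0.16 in R 4.3.3 (quasi-likelihood test, TMM scaling, genes kept by filterByExpr, 17120 tested, Benjamini-Hochberg adjustment over all of them, threshold 0.05) with age as the sole factor. The fit was tested on simulated data. Members under the filter were given as counts with pooled ratios and exact binomial 95% intervals, and single values were compared by exact two-sided permutation. RPKM used the union of exons. Offsets were medians over 20 bins of GC content and 20 of length per sample. Likeness was Pearson's r of log2 CPM (prior count 2) for members with at least 100 counts in every sample. Replicates differed by more than counting noise (chi-square per degree of freedom 2.73 to 27.6). Alternatives were DESeq2 1.42.0, other scalings and filters, the replicate number as a block, and each sample left out. Leaving out both 16-month samples with a GC deviation was added after seeing the data. Genes named were all members, their receptors, decoys and processing enzymes, defining cell markers, called genes of each list (at most 6) and the 3 genes most like each member; a few genes under this rule are not reported here. The members and lists were chosen with earlier results of these data known. Promoter sequences came from RefSeq (GRCm38.p6).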

Additional observations from a re-analysis of the deposited data

How the results depend on the processing

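No member was called with the settings of the report, and 1 (Cx3cl1) was called without a filter on low counts, by DESeq2's Wald test, with the replicate block, with GC and length offsets, with these offsets and the replicate block, and without both 16-month samples that deviate with GC content, a setting chosen after seeing the data. Leaving out single samples gave 0 to 2. Genes called over all numbered 286, against 648 without a filter, 471 by DESeq2, 783 with the replicate block, 2425 with the offsets, 3321 with offsets and block, 1786 without both samples, and 48 to 2211 with single samples left out. For the lists, 15 became 29, 24, 32, 66, 75 and 53 in the same order, and 3 to 50. Members whose ages do not overlap numbered 3, and 5 without TMM or with upper-quartile scaling, where Il33 and Il18 joined as lower (14.8% and 13.4% of all tested genes were lower without overlap there, and 9% and 10.2% higher). With offsets they numbered 4 of the 6 tested members, Ccl9, Il33, Il18 and Cx3cl1 (16.3% of genes lower, 16.1% higher). Il1b turned from -0.05 to 0.016 with offsets and block and to 0.061 without both samples, and ranged from -0.15 to 0.085 with single samples left out. The cause of these shifts was not tested. With lengths of the longest transcript, Il1b passed Ccl4 in RPKM (0.241 against 0.191).

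The replicate numbers did not pair the samples: same-numbered samples correlated at 0.18, 0.0958 and 0.0351 in their deviations, and 5 of 6 samples correlated best with their own number. With the block the log2 fold change of Cx3cl1 was 0.31 (edgeR adjusted p = 0.00739). Depth limits what can be said of Tnf, Ccl2, Ccl3 and Ccl4, whose samples hold 0 to 17 counts.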

Other observations

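Cxcl13, a chemokine that draws B cells and that falls outside the rule for named genes, was chosen after its values were seen. It had 10, 8 and 14 counts at 6 months and 0, 0 and 1 at 16 months. Every sample of 16 months thus lay below every sample of 6 months, as in 11.5% of genes past the count filter. Cxcl13 itself was under that filter. Without it edgeR's adjusted p was 0.00242, with 2.35% of genes called, and for a gene chosen by its values this p is only descriptive. Against the 9 counts that 3 counts in each of the 3 libraries of 16 months would allow, it was at least 2.95-fold lower at 16 months. This bound takes the 32 counts at 6 months as exact.

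Other chemokine genes were also expressed well above the 7 low members. Cxcl14 stood at 61.7 RPKM at 6 months and 59.5 RPKM at 16 months (edgeR adjusted p = 0.715). Ccl27a stood at 12 and 11.1 RPKM over the union of its exons (edgeR adjusted p = 0.414). Both genes were chosen after their values were seen.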
